A study of Rattus norvegicus with 9 samples.

Results

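Kinesins, dyneins and tubulins are the motors and the track of the microtubule system, and their transcripts were followed in cultured Sertoli cells, which nurse the germ cells of the testis, from rats of 3 ages. Members were the genes whose symbol on the array began as a kinesin (Kif, Klc), a cytoplasmic dynein or dynactin subunit (Dync, Dynl, Dctn), an axonemal dynein (Dnah, Dnai, Dnal) or a tubulin (Tuba, Tubb, Tubg, Tubd, Tube), with Tubb3 not analysed here. The rule found 71 genes on 122 of 41012 probes, out of 35614 genes and unnamed probes on the array, and used no measured value. Cells were isolated from testes of rats aged 5, 12 and 60 days and held for 4 days in defined medium. They then received pulses of oFSH (50 ng/ml) with testosterone (1e-07 M) over 11 h, so that all 3 groups had both hormones and no culture without them was measured. Each age had 3 one-colour arrays, 9 in all. The labels give no strain and do not say whether the 3 arrays of an age came from separate animals or cultures, so p-values measure the spread between these arrays, which may be technical.

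Microtubules are polymers of alpha and beta tubulin pairs, started at centrosomes and other sites by gamma tubulin. Most kinesins carry cargo towards the plus end, others push spindle poles apart or take tubulin off microtubule ends, and cytoplasmic dynein with its cofactor dynactin walks to the minus end. Axonemal dyneins slide the paired microtubules of motile cilia and of the sperm tail. In the testis, Sertoli cells stop dividing before puberty and then carry dense microtubule arrays along their length, which move vesicles, organelles and attached spermatids. Germ cells use the same families for meiotic spindles, the manchette and the flagellum.

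Levels are the log2 of the processed signal minus the log2 of the array's 75th percentile signal, so that a level of 0 lies at that percentile. Levels of different genes come from different probes and are not compared with each other. Of the 71 genes, 61 were tested, each having a probe well above background in 2 or more replicates of an age. For 44 the probe used was above background on all 9 arrays. Of the tested members 8 (Dnah6, Dnah7, Dnah8, Dnah9, Dync1li1, Dynlrb2, Kif27 and Kif2b) passed through the 60-day arrays alone and 1, Kif12, through the 5-day arrays alone, so that for them a difference between ages was built into the filter. The other 10 were Dnah3, Dnah5, Dnah10, Dnah11, Kif5a, Kif5c, Kif14, Kif21b, Kif26a and Tubb4a. The probe used for them was above background on no array in 8 cases, on 1 array for Kif21b and on 2 arrays for Kif26a. Calls are limma's moderated tests with Benjamini-Hochberg adjustment over 22654 genes, at an adjusted p under 0.05, and "rose" and "fell" are used of called members alone. Arrays of the same replicate number are called a slide here, although the sample labels give the number alone. Each such set held 1 array of every age, always in the same position on the slide, so that age cannot be told apart from position.

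The labelled cell type was checked first. Of 15 Sertoli markers tested, Sox9 and Gata1 were above background on no array at 5 days and all were above background at 60 days, and Wt1, Gata4 and Inha were above background on all 9 arrays. The summed linear level of the Sertoli markers was itself 35.1 to 42.2 at 5 days, 158 to 219 at 12 days and 274 to 294 at 60 days, and 10 of the 15 rose from 5 to 12 days. Other cells were represented too. The summed linear level of 16 spermatocyte markers ranged over 2.63 to 4.5 at 5 days, 18.0 to 26.9 at 12 days and 128 to 213 at 60 days, and 12, 3 and 0 of the 16 were above background on no array at these ages. For 17 spermatid markers the sums were 0.546 to 0.822, 0.541 to 0.92 and 11.8 to 17.4, with 13, 11 and 0 markers above background on no array. Markers of peritubular cells and fibroblasts fell in sum from 553 to 1040 at 5 days to 43.4 to 230 at 60 days. No member is in any of these marker lists. In these bulk samples, fewer cells of a type and less RNA per cell cannot be told apart.

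Axonemal dyneins were 7 of the 14 members that rose from 12 to 60 days. All genes tested, not the members alone, were called more often at this step than from 5 to 12 days. From 5 to 12 days 4 of the 61 tested members rose and 2 fell, against 6.15% of all genes tested that rose and 6.29% that fell. From 12 to 60 days 14 rose and 3 fell, against 12.2% and 13.1%. Of these risers Dnah7, Dnah8, Dnah9, Dynlrb2, Kif27 and Kif2b passed the filter through the 60-day arrays alone. Their excess at that age was built in. Over the whole span from 5 to 60 days 21 rose and 6 fell, against 17.3% and 18.0%. Those risers include the same members and Dnah6, which also passed through the 60-day arrays alone. Kif12, which passed through the 5-day arrays alone, fell in both comparisons with 5 days. In none of the 3 comparisons were 33 of the 61 called. In the test for any difference among ages (limma's F-test), 23 members were called, or 37.7%, close to the 36.7% of all genes. The 60-day and 5-day arrays each serve in 2 of the 3 comparisons, and so do the 12-day arrays.

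By role, the axonemal dyneins had the highest median of the 11 roles from 12 to 60 days. From 12 to 60 days, 7 of the 9 tested (of 13 on the array) rose, with a median log2 fold change of 3.30, or 2.63 with members below background at 12 days set at their bound. Of these 9, Dnah6, Dnah7, Dnah8 and Dnah9 passed the filter through the 60-day arrays alone, so that their excess at that age was built in. With the slide as a block Dnah6 was called as well (adjusted p = 0.0244 with and 0.0735 without it). The median over all 61 tested members was 0.33 in that comparison and that over all genes was -0.17. At the other end, none of the 9 tested tubulins was called from 5 to 12 days or from 12 to 60 days by limma, and 2 and 0 of them had an unadjusted p under 0.05. Of 10 spindle kinesins 2 fell and 1 rose from 12 to 60 days (median -0.60), and of 9 transport and other kinesins 2 rose and 1 fell. When arrays were scaled to 7 spike-in controls in place of the 75th percentile, all log2 differences moved by -1.35, 0.91 and -0.44 in the 3 comparisons. The axonemal dynein median from 12 to 60 days was then 4.21, whereas the spindle kinesin median turned from -0.60 to 0.31 and that of the beta tubulins from -0.38 to 0.53. The median of all genes stood at -1.30, 0.74 and -0.53 under this scale. No called member changed sign, but 4 of 6 calls from 5 to 12 days (Dnai2, Dync1i1, Kif21a, Kif5b) and 3 of 17 from 12 to 60 days (Kif1c, Kif20a, Kif23) were lost. So were 11 of 27 from 5 to 60 days (Dctn1, Dnah1, Dnah6, Dnal4, Dynll2, Kif20a, Kif27, Kif5b, Kifc3, Klc2, Tubb6). Calls were also recomputed without each slide and without each single array, and members that lost a call in any of these 12 refits are named with their values below.

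**Figure D1:**
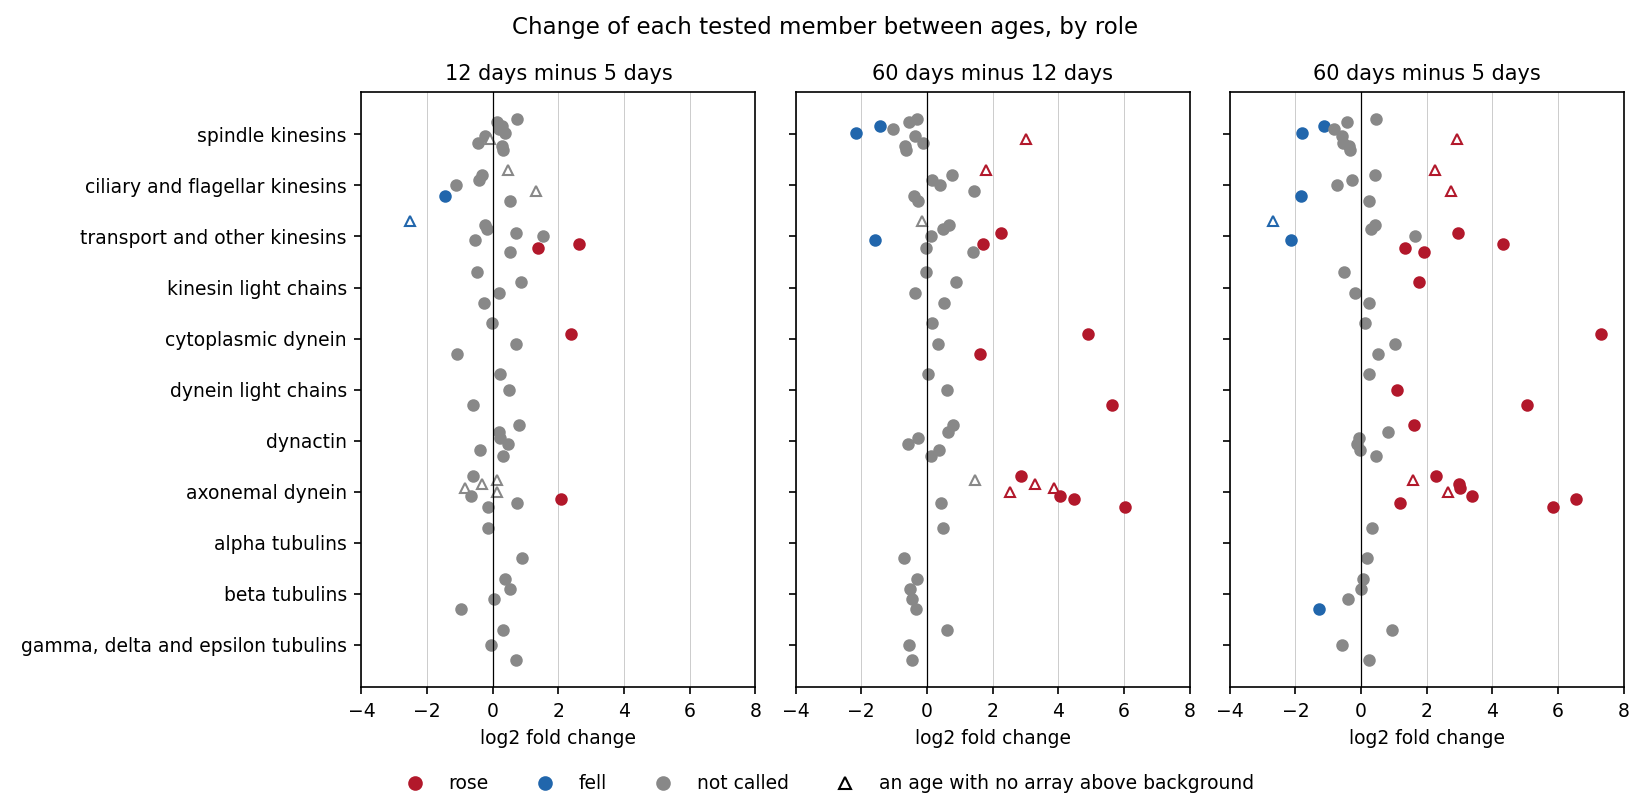
Log2 fold change (x axis) of each of the 61 tested members, by role (rows), in the 3 comparisons (panels). Red and blue points are members that rose or fell (limma, adjusted p under 0.05), grey ones were not called, and open triangles had an age with no array above background, where the fitted value is no fold. The axonemal dyneins lie to the right at 60 days, and the tubulins stay between -1.29 and 0.94.

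Among the subunits of cytoplasmic dynein, the intermediate chain Dync1i1 rose at each step. It links the motor to dynactin and cargo, and its probe lies at chr4:30809494-30809553 of the rn4 build. On slides 1, 2 and 3 its level was -2.86, -3.52 and -3.57 at 5 days, -0.96, -0.44 and -1.39 at 12 days, and 4.27, 3.81 and 3.87 at 60 days. The 3 ages did not overlap, and all arrays were above background. The log2 fold change was 2.39 ± 0.36 (SE, n = 3 arrays per age) from 5 to 12 days (limma, adjusted p = 0.00161) and 4.92 ± 0.36 from 12 to 60 days (adjusted p = 9.23e-06), or 7.30 over the whole span. Without slide 2 the first of these calls was lost (adjusted p = 0.0537, 2.04 to 2.63 over the 12 refits). With another background correction (normexp) on the arrays of slides 1 and 3, the change from 5 to 12 days was 0.54 (limma, adjusted p = 0.129). Of the other subunits, the heavy chain Dync1h1, which holds the motor domain, had means of 5.23 ± 0.44, 5.19 ± 0.65 and 5.34 ± 0.57 (SD, n = 3) at 5, 12 and 60 days and was not called. A second Dync1h1 probe near background (5 of 9 arrays) averaged -4.71, -2.62 and -3.86.

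Dync2li1, a light intermediate chain of the dynein that runs inside cilia, had its lowest level at 12 days. It read 1.91, 1.36 and 0.90 at 5 days, 0.03, 1.00 and -0.10 at 12 days and 2.36, 1.51 and 1.88 at 60 days. The 60-day arrays lay above all 12-day arrays, and the 5-day arrays overlapped both. The rise from 12 to 60 days was 1.61 ± 0.42 (limma, adjusted p = 0.0164), and the change of -1.08 from 5 to 12 days was not called (adjusted p = 0.137). This rise was lost without slide 1, without slide 3, and without the 12-day array of slide 1, the 60-day array of slide 1 or the 12-day array of slide 3 (adjusted p up to 0.113, 1.25 to 2.15). The promoter of Dync2li1 held GTTGCCA, one arm of the X-box bound by the RFX factors of ciliated cells (searched on both strands). It is in capitals in this window at chr6:15778167-15778196, minus strand, of GRCr8 (RefSeq):
Dync2li1: ctgacgtcgctgccaTGGCAACcaaggagc
Of 59 members with a RefSeq promoter (250 bases before the start to 50 after it), 6 held these letters, or 10.2%, against 4.45% of 27457 promoters of all genes. Of 12 members with a promoter that rose from 12 to 60 days, Dync2li1 was the one that held it. A match is no evidence of binding.

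Dynein light chains are small subunits that several motors share. Dynlrb2, a roadblock light chain found with axonemal and ciliary dynein, was near background early, where a single array of each age exceeded it. Its levels were -4.06, -3.87 and -3.69 at 5 days, -4.83, -4.17 and -4.47 at 12 days and 1.98, 0.31 and 1.19 at 60 days. The 60-day arrays stood far above all others, and the log2 fold change from 12 to 60 days was 5.65 ± 0.43 (limma, adjusted p = 1e-05) on a probe at chr19:46547025-46547799 (rn4). Dynlrb2 passed the filter through the 60-day arrays alone. The hub light chain Dynll2 rose by 1.1 ± 0.32 from 5 to 60 days (adjusted p = 0.0204), from 4.01, 3.72 and 3.79 to 4.68, 5.27 and 4.87, with 12-day arrays between. That call was lost without slide 2 or 3, without the 5-day or 60-day array of slide 2 and without the 5-day array of slide 3 (adjusted p up to 0.229, 0.87 to 1.31). Its close relative Dynll1 averaged 5.58, 5.79 and 5.82 and was not called.

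Dynactin, the cofactor that makes dynein processive, had 1 call in all. Of its 6 tested subunits none was called by limma from 5 to 12 or from 12 to 60 days, where none had an unadjusted p under 0.05 either. Of all genes tested 6.15%, 12.2% and 17.3% rose and 6.29%, 13.1% and 18.0% fell in the 3 comparisons. Dctn1, the p150Glued subunit that grips the microtubule, read -0.27, 0.51 and 1.41 at 5 days, 1.6, 0.64 and 1.84 at 12 days and 1.73, 2.67 and 2.09 at 60 days. The 5-day arrays were the most spread and lay below all 60-day arrays. From 5 to 60 days Dctn1 rose by 1.61 ± 0.49 (adjusted p = 0.0255). This was lost without slide 1 or 2, without the 5-day array of either slide, and without the 60-day array of slide 2 or 3 (adjusted p up to 0.156, 1.20 to 2.08). Dctn3, a shoulder subunit, averaged 5.60 ± 0.29, 5.81 ± 0.29 and 5.55 ± 0.12 (SD, n = 3). Its promoter was 1 of 5 among the 59 that held the full cAMP response element, TGACGTCA, together with those of Dnah6, Kif5c, Kif15 and Klc1 (8.47%, against 1.91% of all promoters). Of the 12 risers from 12 to 60 days with a promoter, 0 held it.

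Of the axonemal dyneins 1 was called from 5 to 12 days and 7 from 12 to 60 days, and the 2 steps were not tested against each other. All of these calls were rises, and 6.15% and 12.2% of all genes tested rose at these steps. Dnai2, an intermediate chain of the outer arms, was the one axonemal member that rose by 12 days. Its level was -5.05, -4.09 and -3.71 at 5 days, -2.38, -2.86 and -1.39 at 12 days and 2.20, 1.58 and 3.01 at 60 days. The 3 ages did not overlap, and a single 5-day array but all later ones exceeded background. The log2 fold changes were 2.07 ± 0.52 (limma, adjusted p = 0.0243) from 5 to 12 days and 4.47 ± 0.52 (adjusted p = 0.000126) from 12 to 60 days. The earlier rise was lost without slide 1, 2 or 3, without the 5-day array of slide 1 or 2, and without the 12-day array of slide 1 or 3 (adjusted p up to 0.19, 1.67 to 2.5), and the later one was kept in all 12 refits.

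Dnali1, an inner arm light intermediate chain, was low until 60 days. On slides 1, 2 and 3 it read -3.21, -4.94 and -3.06 at 5 days, -3.21, -4.06 and -4.38 at 12 days and 3.74, 0.97 and 1.68 at 60 days. Its rise of 6.02 ± 0.72 from 12 to 60 days (limma, adjusted p = 0.000153) was the largest log2 fold change of any member in that comparison, and its second probe moved by 5.55. The heavy chain listed as Dnahc11, whose probes lie on chromosome 10 and not with Dnah11 on chromosome 6, read -2.34, -4.51 and -3.59 at 5 days, -4.44, -4.26 and -3.72 at 12 days and 0.69, -0.57 and -0.40 at 60 days. The 60-day arrays were again above all others, with a rise of 4.04 ± 0.55 from 12 to 60 days (adjusted p = 0.000344). It stayed called in the 12 refits, at 3.50 to 6.39. The highest value came without the 5-day array of slide 1, where a second, then brighter probe stood for the gene.

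Dnah1, the heavy chain of an inner arm, was measured by 2 probes that disagreed. The probe used, at the 3′ side of the locus, read -2.04, -2.74 and -2.26 at 5 days, -2.95, -3.58 and -2.34 at 12 days and 0.67, -0.93 and 0.04 at 60 days, a rise of 2.88 ± 0.47 from 12 to 60 days (limma, adjusted p = 0.0011). The other probe, further towards the 5′ end on the same strand, averaged -3.11, -3.67 and -3.33, a difference of 0.34 in the same comparison and of -0.22 from 5 to 60 days, where the first gave 2.27. Both are shown since a reader may place them in the transcript (rn4, minus strand, chr16:6693880-6694420 for the probe used and chr16:6724495-6724554 for the other):
Dnah1, probe used: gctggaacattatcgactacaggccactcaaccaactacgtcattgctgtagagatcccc
Dnah1, other probe: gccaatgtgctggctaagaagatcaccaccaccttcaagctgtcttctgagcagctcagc
With the mean of both probes the change from 5 to 60 days was 1.02 and no longer called (adjusted p = 0.0896).

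The remaining heavy chains were close to background before 60 days. Dnah8, an outer arm chain of the sperm tail, was above background on no array at 12 days and on all 3 at 60 days, where it read -2.49, -2.56 and -1.57, at least 6.2-fold higher (limma, adjusted p = 0.00188). Dnah7, an inner arm chain, was at least 5.37-fold higher at 60 than at 12 days (adjusted p = 0.00788), and Dnah9, an outer arm chain, at least 2.98-fold higher (adjusted p = 0.00274). These bounds set the 60-day mean against the mean, over the 12-day arrays, of the lowest signal well above background or the probe's own signal, whichever was higher. They hold for the processing used. Normexp, another background correction, was run on the arrays of slides 1 and 3 with an offset of 50. It gave log2 differences from 12 to 60 days of 0.59 for Dnah8, 0.34 for Dnah7 and 0.15 for Dnah9, none called. The Dnah7 call was lost without slide 3 in both comparisons with 60 days (adjusted p up to 0.102). Its log2 fold change of 2.97 from 5 to 60 days was 4.51 without slide 2, where another, then brighter probe stood for the gene. On the probe used, slides 1 and 3 differed by 3.31 and 4.30. The Dnah8 call from 5 to 60 days was lost without slide 1 or 3 (adjusted p up to 0.0725). With the probe used, Dnah6 exceeded background on slides 1 and 3 at 60 days and nowhere before. Its rise from 5 to 60 days, at least 1.33-fold (adjusted p = 0.0427), was tested in 8 of the 12 refits and lost in 4, those without any one 5-day array or the 12-day array of slide 1 (adjusted p up to 0.0987). For Dnah6 and Dnah9 a second probe was above background on 1 array at 5 days and on none at 12 or 60 days. That was too few to compare with the probe used. The remaining probes of both genes were above background on no array, so that each rise was seen on the probe used alone. Dnah7, Dnah8 and Dnahc11 also had probes that were above background on no array. Dnah3, Dnah5, Dnah10 and Dnah11 were above background on none of the arrays with the probe used, and a further Dnah11 probe exceeded it on 1 array at 5 days. Dnal4, a light chain, went from 0.18, 0.95 and 1.13 at 5 days to 1.57, 2.29 and 1.93 at 60 days, a rise of 1.18 ± 0.36 (adjusted p = 0.0264). It was lost without any one slide, the 5-day array of slide 1 or the 60-day array of slide 2 or 3 (adjusted p up to 0.162, 0.89 to 1.37).

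From 5 to 60 days 17.3% of all genes tested rose. All 9 tested axonemal members rose in that comparison, 4 of them having passed the filter through the 60-day arrays alone. Spermatocyte and spermatid markers moved with them: 15 of 16 spermatocyte markers and 16 of 17 spermatid markers rose from 12 to 60 days. The spermatid markers Acrv1 and Akap4 were above background on no array at 5 or 12 days and on all 3 at 60 days. The meiotic marker Sycp3 was above background from 12 days on. Of 9 markers of multiciliated duct epithelium, 3 rose and 2 fell from 12 to 60 days (summed level 13.0 to 14.9 at 12 days, 7.95 to 45.1 at 60 days). Foxj1, a regulator of motile cilia, was among the 3 that rose (by 2.71), and 4 of the 9 were not called. The median log2 fold change of these 9 markers was 0.37, or 0.0 with markers below background at their bound. As a list they did not move in a single direction. Pax8, a listed duct marker that was not tested, was above background on no array. The part of these cell types in the levels of the dyneins was not tested.

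**Figure D2:**
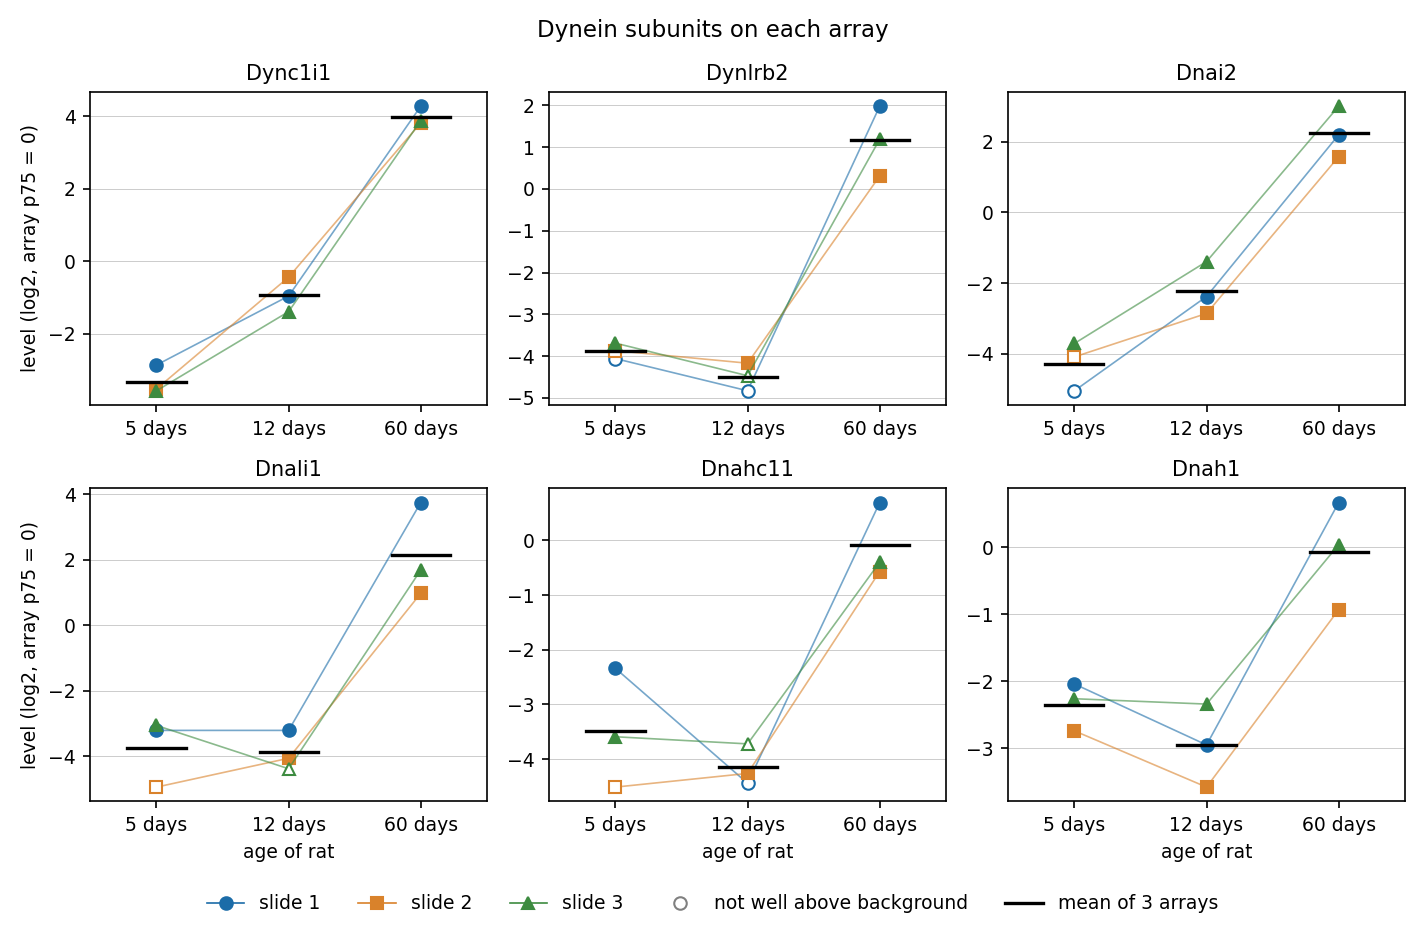
Level (y axis, log2 signal with the array's 75th percentile at 0) of 6 dynein genes at 3 ages (x axis). Points are single arrays, joined by slide, open points were not well above background, and black bars are means of 3 arrays. In each panel the 3 arrays at 60 days lie above all earlier ones, and in Dync1i1 and Dnai2 the 12-day arrays also lie above the 5-day arrays.

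Of 7 tested kinesins of cilia and flagella 2 rose and 1 fell from 5 to 60 days, against 17.3% and 18.0% of all genes tested. Kif3a and Kif3b, which form the motor of anterograde transport in cilia, were not called. Kif3a averaged 2.66, 2.33 and 3.09 at 5, 12 and 60 days, and Kif3b 4.56, 4.13 and 4.29. The other probes of Kif3b differed from this. One, above background on all 9 arrays, averaged -1.68, -0.99 and -0.29, and one near background (7 of 9 arrays) -3.12, -4.25 and -2.92. From 5 to 60 days the probe used differed by -0.27 and these by 1.39 and 0.2. Kif6, a kinesin of motile cilia, read -6.13, -4.36 and -4.91 at 5 days, where no array was above background, then -3.80, -3.97 and -3.65 at 12 days and -1.77, -2.20 and -3.18 at 60 days. The 3 ages did not overlap. At 60 days Kif6 was at least 5.28-fold higher than at 5 days (limma, adjusted p = 0.0013). With normexp on the arrays of slides 1 and 3 this log2 difference was 0.32 and not called. Kif27, a relative of Kif7 that takes part in building motile cilia, was above background on all 60-day arrays (-3.51, -3.12 and -3.77) and on no earlier one. Kif27 passed the filter through the 60-day arrays alone, so that an excess at that age was built in. It was at least 2.59-fold higher at 60 than at 12 days (adjusted p = 0.021), a call lost without slide 1 and without the 12-day or 60-day array of slide 2 (adjusted p up to 0.09). Its fitted log2 difference of 1.80, which is no fold, ran from 1.20 to 3.91 over the refits. The highest value came without the 12-day array of slide 3, where the second, then brighter probe stood for the gene. That probe differed by 3.57 over all 9 arrays. With normexp on the arrays of slides 1 and 3 Kif27 differed by 0.42 and was not called.

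Kif7, a regulator of Hedgehog signalling at the tip of primary cilia, went the other way. It read 4.73, 3.93 and 3.71 at 5 days, 2.46, 3.01 and 2.53 at 12 days and 2.74, 1.87 and 2.24 at 60 days. All 5-day arrays lay above all later ones, and the later ages overlapped. Kif7 fell by 1.46 ± 0.38 from 5 to 12 days (limma, adjusted p = 0.0309) and by 1.84 ± 0.38 from 5 to 60 days (adjusted p = 0.00321), and a second probe differed by -1.07 and -1.04. The probes lie on unplaced sequence of chromosome 19 and on chromosome 1 of rn4, so that they may not report a single gene. The probe used was named Kif7 in the annotation of replicate 1 alone, and the second probe in that of replicate 3 alone. The earlier fall was lost without slide 1, 2 or 3, without the 5-day array of slide 1 or 2, and without the 12-day array of slide 1 or 3 (adjusted p up to 0.157, -1.73 to -1.05), and the later one was kept. With the slide as a block, 4 members fell from 5 to 12 days in place of 2. The added ones were Kif3c, a partner of Kif3a (change of -1.11, adjusted p 0.0479 with and 0.0672 without the block), and the tubulin Tubb6 (change of -0.97, adjusted p 0.047 with and 0.149 without it).

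Of the transport kinesins, Kif5b and Kif21a rose early. Kif5b, the ubiquitous heavy chain of conventional kinesin, went from 4.99, 5.67 and 5.35 at 5 days to 6.76, 6.67 and 6.71 at 12 days and stayed at 6.91, 6.66 and 6.45 at 60 days. Both later ages lay above the first and overlapped each other. The rise from 5 to 12 days was 1.38 ± 0.31 (limma, adjusted p = 0.015), and 2 further probes moved by 1.80 and 1.13. It was lost without slide 1, 2 or 3 and without the 5-day or 12-day array of slide 1 (adjusted p up to 0.104, 1.18 to 1.57). From 5 to 60 days the rise was 1.33 ± 0.31 (adjusted p = 0.00634), lost without slide 1 (adjusted p = 0.0581). On the spike-in scale the change from 5 to 12 days was 0.03. The neuronal heavy chains Kif5a and Kif5c were above background on no array.

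Kif21a, a kinesin that slows microtubule growth at the cell cortex, rose at each step on a probe at chr7:129337599-129337658 (rn4). It read -1.91, -2.75 and -2.44 at 5 days, -0.20, 0.33 and 0.63 at 12 days and 1.6, 1.78 and 2.49 at 60 days. The 3 ages did not overlap. The rises were 2.62 ± 0.38 from 5 to 12 days (limma, adjusted p = 0.00135) and 1.70 ± 0.38 from 12 to 60 days (adjusted p = 0.00781). The first was kept in all 12 refits, and the second was lost without slide 2 (adjusted p = 0.0582). The second probe, above background on 4 arrays, moved by 1.24 and 2.84.

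Klc2, a light chain that couples kinesin-1 to its cargo, rose by 1.76 ± 0.35 from 5 to 60 days (limma, adjusted p = 0.00233), from 5.03, 4.05 and 4.34 through 5.12, 5.19 and 5.71 to 6.29, 6.13 and 6.28. Each age lay above the one before. Its second probe moved by 3.14. The other 3 light chains were not called in any comparison, with fold changes on the log2 scale between -0.52 and 0.23 from 5 to 60 days. Klc3, a light chain of spermatid tails, averaged -2.33, -2.16 and -2.51, and Klc1 2.19, 1.71 and 1.67.

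Kif1c and Kif12 fell. Kif1c, which carries vesicles and dense granules, read 6.97, 6.71 and 6.28 at 5 days, 5.72, 6.33 and 6.26 at 12 days and 4.48, 4.47 and 4.62 at 60 days. The 60-day arrays lay below all others. The fall from 12 to 60 days was 1.58 on the log2 scale (SE 0.32, limma, adjusted p = 0.00461), lost without slide 2 (adjusted p = 0.0902), and that from 5 to 60 days was 2.13 (SE 0.32, adjusted p = 0.000407). Kif12, a kinesin of kidney and other epithelia, was above background on all arrays at 5 days (-3.36, -2.86 and -3.63) and on none later. Kif12 passed the filter through the 5-day arrays alone, so that an excess at that age was built in. It was at least 2.94-fold lower at 12 days (adjusted p = 0.00725) and at least 5.28-fold lower at 60 days (adjusted p = 0.00156). The first call was lost without slide 1 or 2 (adjusted p up to 0.0796). With normexp on the arrays of slides 1 and 3 the 2 log2 differences were -0.18 and -0.04 and were not called. The duct epithelium markers, several of them epithelial keratins, summed to 48.8 to 94.4 at 5 days and 13.0 to 14.9 at 12 days, and the peritubular and fibroblast markers to 553 to 1040 and 330 to 452. Their part in the fall of either kinesin was not tested. Kifc3, a minus-end motor at cell junctions, went from -3.55, -2.64 and -1.51 at 5 days to -2.13, 0.40 and -0.19 at 60 days. The 2 ages overlapped, and the rise of 1.93 ± 0.68 (adjusted p = 0.049) was lost in 9 of the 12 refits, which were those without slide 2 or 3, without any single 12-day array, without the 5-day array of slide 1 or 2, and without the 60-day array of slide 2 or 3 (adjusted p up to 0.274, 1.37 to 2.67).

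Kif1a, the axonal motor of synaptic vesicle precursors, gave opposite values on its 2 probes. The probe used read -2.72, -4.05 and -3.83 at 5 days, -3.22, -3.00 and -2.26 at 12 days and -0.32, -1.02 and -0.40 at 60 days, a rise of 2.25 ± 0.43 from 12 to 60 days (limma, adjusted p = 0.00319). The other probe read -4.31, -2.94 and -3.42, then -2.47, -3.97 and -5.09, then -5.70, -6.07 and -6.46, and was above background on 2 arrays at each of the first ages and on none at 60 days. The mean of both moved by 0.01 (adjusted p = 0.99). Both probes were named Kif1a in the annotation of replicate 1, and neither bore a gene symbol in that of replicate 3. The 2 sequences differ in one respect a script can read. The first 30 of 60 bases are shown of the probe used (chr9:92288902-92288961, rn4, minus strand), which has a stop codon in each of its 3 forward frames, and the whole of the other (chr9:92361049-92361792, minus strand), which has 2 frames free of stops:
Kif1a, probe used: tctaagcatagacggacttataattaatat
Kif1a, other probe: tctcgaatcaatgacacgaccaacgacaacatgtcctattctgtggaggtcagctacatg
No annotation of rn4 was at hand, for which reason the exon or untranslated region of a probe is not given, and which Kif1a transcripts the probes report was not tested.

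**Figure D3:**
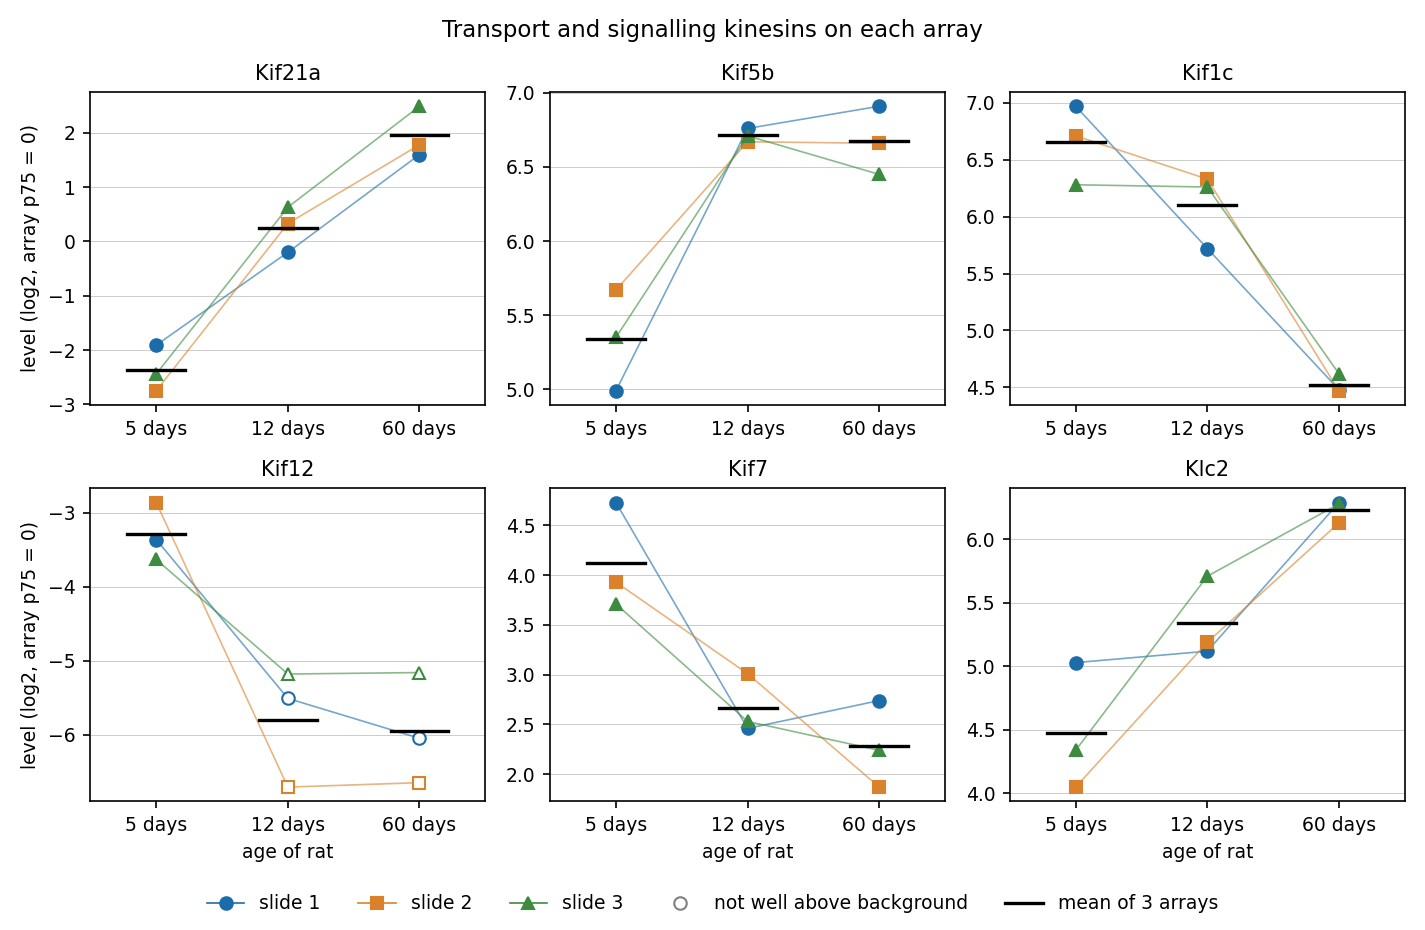
Level (y axis, log2 signal with the array's 75th percentile at 0) of 5 kinesins and the light chain Klc2 at 3 ages (x axis). Points are single arrays, joined by slide, open points were not well above background, and bars are means of 3 arrays. Kif21a climbed at each step, Kif5b was high from 12 days on, Kif1c was lowest at 60 days, and Kif12 was above background at 5 days alone.

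Of the spindle kinesins 0 of 10 were called by limma between 5 and 12 days and none had an unadjusted p under 0.05. From 12 to 60 days Kif20a and Kif23 fell. Of all genes tested 6.15% rose and 6.29% fell at the first step, and 12.2% and 13.1% at the second. Kif20a, which acts at the midzone of the dividing cell, read 2.10, 2.53 and 1.92 at 5 days, 2.68, 2.34 and 2.40 at 12 days and 0.98, 1.32 and 0.81 at 60 days. Kif23, the kinesin of the centralspindlin complex, read 2.12, 2.07 and 0.99, then 1.96, 2.57 and 1.74, then -0.16, 0.00 and -0.05. In both the 60-day arrays lay below all earlier ones. From 12 to 60 days the falls were 1.43 (SE 0.32, limma, adjusted p = 0.00684) and 2.16 (SE 0.39, adjusted p = 0.00204) on the log2 scale. Kif20a lost this call without slide 1 or 3 (adjusted p up to 0.0617), and on the spike-in scale both had smaller differences that were not called (-0.53 and -1.25). From 5 to 60 days the falls were 1.14 and 1.80, lost for Kif20a without slide 1, 2 or 3, the 5-day array of slide 2 or the 60-day array of slide 3 (adjusted p up to 0.115), and for Kif23 without slide 1 (adjusted p = 0.0582).

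Of the other spindle motors, Kif2b was called, and Kif22 with the slide as a block. Kif11, which pushes the poles apart, averaged -2.36, -1.61 and -1.92, and Kifc1, a minus-end motor that focuses poles, 3.63, 3.94 and 3.29. Kif2b, a kinesin that takes tubulin off microtubule ends, stood apart from this group. It was above background on no array at 5 or 12 days and on all 3 at 60 days (-3.47, -3.36 and -2.74), at least 3.14-fold higher than at 12 days (limma, adjusted p = 0.000505), having passed the filter through the 60-day arrays alone. With normexp on the arrays of slides 1 and 3 this log2 difference was 0.28 and not called. Markers of dividing cells summed to 107 to 147 at 5 days, 156 to 168 at 12 days and 77.4 to 114 at 60 days, and 5 of 21 fell and 2 rose from 12 to 60 days. Among them Cdk1 fell by 2.42 and Ube2c by 2.45, while Top2a differed by -0.39 and was not called. Their part in the fall of the 2 kinesins was not tested.

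The promoters of spindle kinesins were searched for the cell cycle homology region (CHR, TTTGAA, both strands), which binds the complexes that hold mitotic genes to late cell cycle. It was found in 5 of 9 spindle kinesins with a promoter and in 11 of the 59 members, or 18.6%, against 18.1% of all promoters. Windows of 30 bases from 3 of the 5 are shown with the match in capitals (GRCr8, RefSeq; chr8:71320646-71320675, minus strand, chr1:191080879-191080908, minus strand, and chr20:5000895-5000924, plus strand):
Kif23: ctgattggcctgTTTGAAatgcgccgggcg
Kif22: ccggaccccggcaaTTCAAAagagagaagc
Kifc1: cgacggttgaaaTTCAAAagtggcgggtgt
Kif23 fell, while Kif22, a chromosome arm motor, differed by -1.02 ± 0.44 from 12 to 60 days (limma, adjusted p = 0.117) and Kifc1 by -0.65 ± 0.33 (adjusted p = 0.184). With the slide as a block Kif22 was called in this comparison (adjusted p = 0.0206) and from 5 to 60 days (change of -0.83, adjusted p 0.0376 with and 0.172 without it). Kif20a held no match in this window.

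The tubulins, the substance of the microtubule, gave 1 call. None of 9 tested members was called at either step, and from 5 to 60 days Tubb6 alone fell. Of all genes tested 6.15%, 12.2% and 17.3% rose and 6.29%, 13.1% and 18.0% fell in the 3 comparisons. Tubb6, a beta tubulin of many non-neuronal cells, read 4.64, 4.66 and 4.34 at 5 days, 3.90, 4.01 and 2.82 at 12 days and 3.52, 3.40 and 2.85 at 60 days. The 5-day arrays lay above all others. The fall was 1.29 on the log2 scale (SE 0.39, limma, adjusted p = 0.0238), and a second probe differed by -1.21. The call was lost without slide 1, 2 or 3, without the 5-day array of slide 1 or 2 and without the 60-day array of slide 3 (adjusted p up to 0.125, -1.42 to -1.09). From 5 to 12 days Tubb6 differed by -0.97 (adjusted p = 0.149), a change called with the slide as a block (adjusted p = 0.047) and on the spike-in scale (-2.32, adjusted p = 0.0297). With normexp on the arrays of slides 1 and 3, no tubulin fell from 5 to 60 days and 2 rose, Tubb2b (0.75, adjusted p = 0.0327) and Tubb4b (0.75, adjusted p = 0.0293).

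Tubb5, the main beta tubulin of dividing and interphase cells, averaged 7.26 ± 0.10, 7.28 ± 0.34 and 6.84 ± 0.24 (SD, n = 3) at 5, 12 and 60 days. Tubb4b, a beta tubulin rich in axonemes, averaged 7.60, 8.12 and 7.59, with saturated spots on 1, 2 and 3 arrays, so that differences may be compressed. Of the alpha tubulins, Tuba1c averaged 6.32, 6.17 and 6.65, and Tuba4a 3.01, 3.89 and 3.20. Tubg1, the gamma tubulin that starts new microtubules, averaged -1.05, -0.36 and -0.80, and Tube1, an epsilon tubulin of centrioles, 0.85, 0.81 and 0.27. None of these was called. Tuba1c has a probe on chromosome 5 and one on chromosome 7 of rn4, whose differences from 12 to 60 days were 0.54 and 0.49.

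Array probes for tubulins can share sequence, which is why 2 are shown. The Tubb2b probe used (chr17:37090616-37090675, plus strand) and the Tubb5 probe (chr20:3063856-3063915, plus strand, both rn4) share a stretch of 35 bases. Within these 35 bases they differ at 3, given in capitals:
Tubb2b: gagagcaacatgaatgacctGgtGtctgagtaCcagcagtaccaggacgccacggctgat
Tubb5: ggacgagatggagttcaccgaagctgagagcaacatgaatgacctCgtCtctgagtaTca
Tubb2b, a beta tubulin of neurons and embryonic tissue, averaged 7.14, 7.52 and 7.20 on this probe and was not called. Its 2 other probes averaged 4.14, 2.56 and 2.46 and 4.64, 4.24 and 4.33. The former read 4.02, 4.03 and 4.38 at 5 days and 3.36, 2.55 and 1.76 at 12 days, lower on each slide. How far RNA of one gene was read by the other's probe was not tested.

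**Figure D4:**
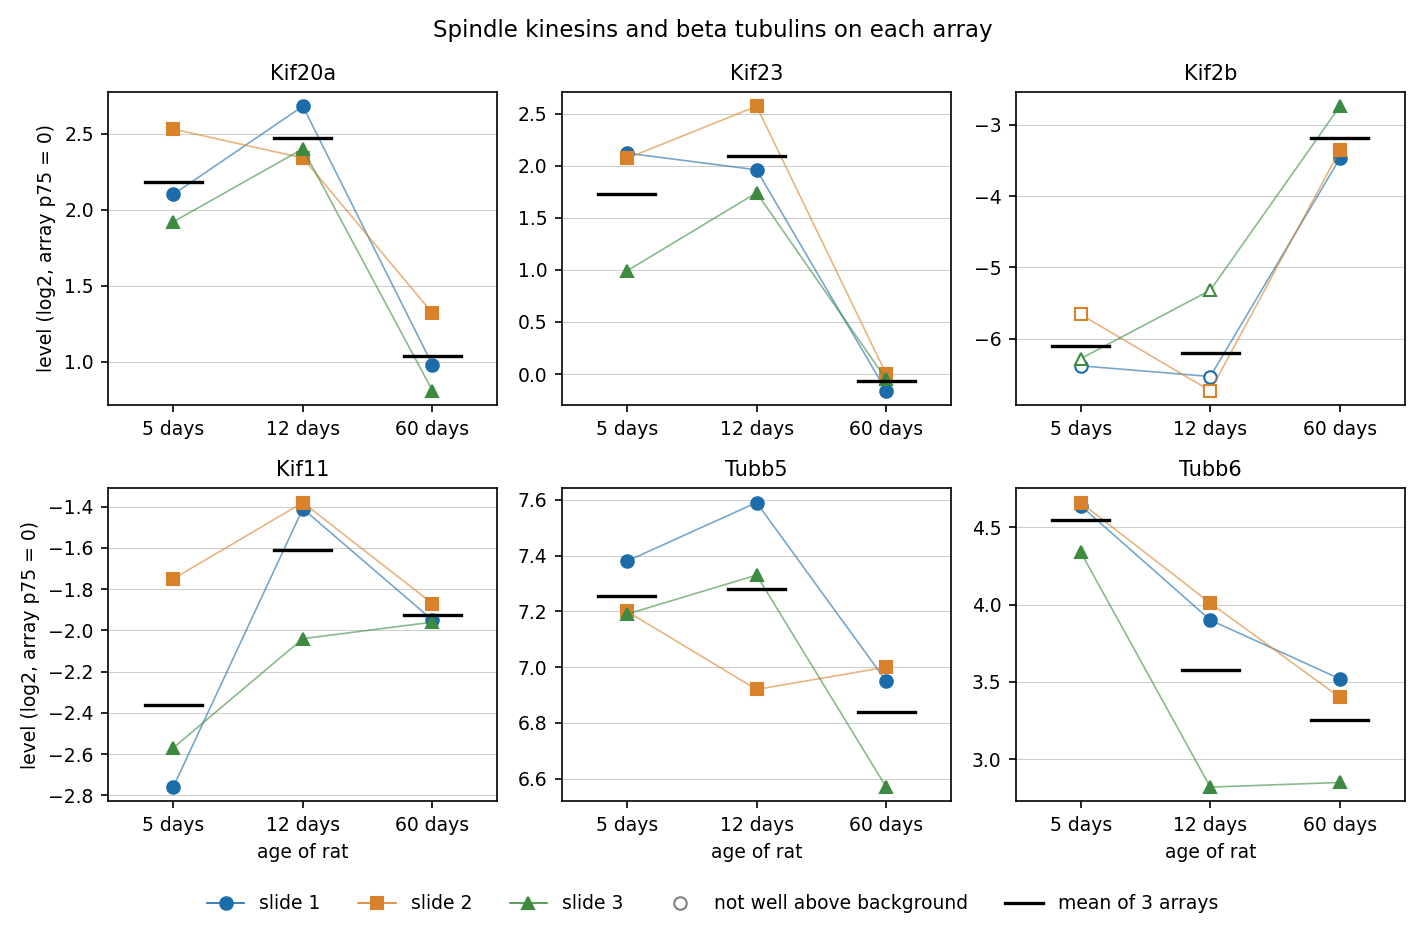
Level (y axis, log2 signal with the array's 75th percentile at 0) of 4 spindle kinesins and 2 beta tubulins at 3 ages (x axis), drawn as single arrays joined by slide, with open points not well above background and bars for means of 3 arrays. Kif20a and Kif23 are lowest at 60 days, Kif2b is above background at 60 days alone, and Tubb6 is highest at 5 days.

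Probes of 1 gene could be compared for 35 members with more than 1 probe. Where a member was called, a second probe that was above background on any array of the ages compared gave the opposite sign for Kif1a in both comparisons with 60 days and for Dnah1 from 5 to 60 days. Dnah6 and Dnah9 had such a probe on a single 5-day array alone, and its sign is not counted. For Kif5b, Kif7, Kif21a, Klc2, Tubb6, Dnali1, Dnal4, Dynll2, Kif27, Dnah7, Dnah8 and Dnahc11, such probes had the same sign in every comparison in which the member was called. Probes above background on no array, which Dnah7, Dnah8 and Dnahc11 also had, were not compared.

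**Figure D5:**
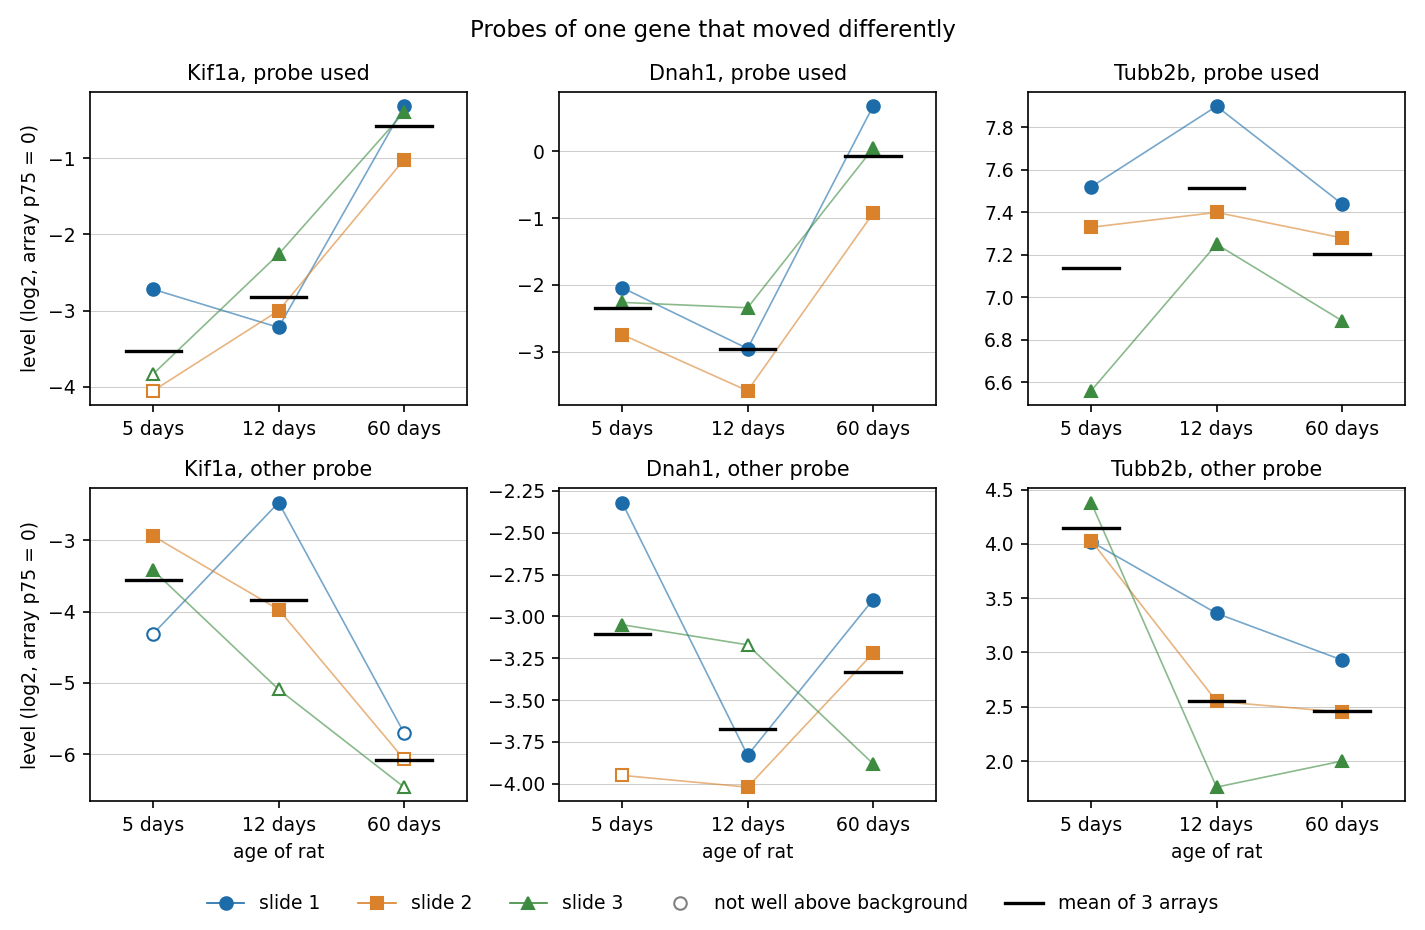
Level (y axis, log2 signal with the array's 75th percentile at 0) at 3 ages (x axis) of 2 probes each of Kif1a, Dnah1 and Tubb2b, with the probe used above and another probe of the same gene below. Points are single arrays joined by slide, open points were not well above background, and bars are means. For Kif1a the upper probe is highest and the lower probe lowest at 60 days.

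The other genes of the microtubule system were counted by list, 114 tested genes in 6 lists. From 5 to 12 days 2 rose and 7 fell. From 12 to 60 days 39 rose and 10 fell, and from 5 to 60 days 39 rose and 15 fell. Of all genes tested, 6.15%, 12.2% and 17.3% rose and 6.29%, 13.1% and 18.0% fell in these 3 comparisons. No list was tested against these shares. Structural genes of the axoneme moved most: 16 of 18 rose from 12 to 60 days, with a median log2 fold change of 4.91, or 3.98 with genes below background at their bound. One of them, Odf1, is also among the spermatid markers. Spag16, a central pair protein, was at least 85.4-fold higher and Tekt4, a tektin filament, 5.89 on the log2 scale. Of 17 genes of intraflagellar transport, which builds cilia with Kif3 and Dync2 motors, 9 rose, but 2 without slide 2 or without slide 3, 3 without slide 1 and 5 without the 12-day array of slide 3. Without slide 2 the count of all 114 was 22 rises and 4 falls, and without slide 3 it was 6 falls.

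Among 25 microtubule stabilising and plus-end genes 4 rose and 7 fell from 12 to 60 days. Of all genes tested 12.2% rose and 13.1% fell at this step, and the lists below were not tested against that. Map7, a lattice-binding cofactor of kinesin-1, rose at both steps, by 2.18 and 1.96, while Clip2 and Clip3, plus-end proteins, fell by 2.43 and 3.08 at the later one. Of 24 genes that fold, modify or nucleate tubulin 5 rose and 1 fell, and the rises included the polyglutamylase Ttll9 (4.07) and the deglutamylases Agbl2 and Agbl4, at least 23.4-fold and 5.61-fold higher. Of 20 motor adaptors 1 rose and 2 fell, among them Fez1, an adaptor of kinesin-1, which fell by 4.22. Of 10 severing and destabilising genes 4 rose, the katanin-like subunit Katnal1 (1.43) among them. These examples were chosen after their values were seen.

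Genes of the same families that the array lists under older names lie outside the rule, 28 in all and 24 tested. From 12 to 60 days 11 of them rose and 1 fell, against 12.2% and 13.1% of all genes tested. Dnai1, the outer arm partner of Dnai2, was at least 18.9-fold higher, and the testis alpha tubulin Tuba3a had mean levels of -1.08, 2.38 and 4.79 and rose at both steps (3.47 and 2.41). Dync1i2, the ubiquitous counterpart of Dync1i1, averaged 2.01, 2.17 and 1.81 and was not called. The spermatocyte and spermatid marker sums given above moved with these lists as well, and their part was not tested.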

How the data were processed

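Total RNA of cultured Sertoli cells was labelled with Cy3 and read on 9 one-colour Agilent rat arrays. Each deposited scanner file holds background-corrected processed signal intensities from Agilent Feature Extraction, per the file headers and the submitters' processing notes. The 75th percentile intensity was 150.1 to 437.5, and 49.2% to 63.1% of probes were well above background, and the number of arrays limits the precision. The deposited table of log2 values equals the log2 signal minus the log2 of that percentile within 0.01 for 99.639% to 99.722% of probes. Replicates 1 and 3 give gene names, and replicate 3 the rn4 coordinates.

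Of 41012 probes, 254 were left out for spot flags, and 26613 passed the filter. A gene was read from its brightest probe on average. The model, limma 3.58.1 (R 4.3.3; lmFit and eBayes, 2-sided, 6 residual degrees of freedom), had 1 mean for each age and used the 9 arrays together, after the steps had been tested on simulated data. A gene with no array above background at an age is given as a bound, from the mean of the bright age against, per array of the dim age, the higher of the lowest signal well above background and the probe's own. Replicate numbers, taken here as slides, pair the arrays: deviations of arrays with the same number correlated at 0.181 to 0.601, and of others at -0.513 to 0.094. Replicate 1 was also read with another Feature Extraction version (9.5.3.1) than replicates 2 and 3 (10.5.1.1). What arrays of the same number share was not tested. Named members are up to 3 called per role, direction and comparison with the largest change, the brightest of each role and a fixed list; members described outside that rule (Dnah6, Dnah7, Dnah8, Dnah9, Kif3c, Kif22) were chosen after their values were seen. Members and lists were chosen with earlier results of these data known. Alternatives were other scalings, background corrections, filters, probe rules, a slide block and leaving out slides or arrays.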

Additional observations from a re-analysis of the deposited data

How the results depend on the processing

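With the slide as a replicate block 4 members fell from 5 to 12 days in place of 2, all calls made without it were kept, and Dnah6 (12 to 60 days) and Kif22 (12 to 60 and 5 to 60 days) were gained. Spike-in scaling gave 0 rises (0 at an unadjusted limma p under 0.05) and 6 falls from 5 to 12 days, 0 falls from 12 to 60 days (0 unadjusted) and 12 rises from 5 to 60 days. Normexp, run on the 6 arrays of replicates 1 and 3, gave 0 rises (9 unadjusted) and 0 falls (3 unadjusted) from 5 to 12 days, 7 rises from 12 to 60 days, and 13 rises and 3 falls from 5 to 60 days, and Tubb4b turned from -0.01 to 0.75 in that last comparison. With probes above background on all 9 arrays, a filter that leaves out members low at an age, there was 1 fall from 5 to 12 days, with 4 rises from 12 to 60 days and 9 from 5 to 60 days, and with no filter 1 fall from 5 to 12 days. The cause of the other changes was not tested. Leaving out a slide or array gave 1 to 4 rises and 0 to 2 falls from 5 to 12 days, 12 to 15 and 2 to 4 from 12 to 60 days, and 15 to 20 and 3 to 6 from 5 to 60 days. The lowest counts came without replicate 2 (1 rise), without replicate 1 or 2 (0 falls, 3 unadjusted in each) and without replicate 1 (3 falls from 5 to 60 days). Of 6, 17 and 27 calls, 1, 11 and 16 were kept in every leave-out, and 0, 6 and 8 under every other alternative. With normexp all calls from 5 to 12 days were lost. From 12 to 60 days those of Dnah7, Dnah8, Dnah9, Dync2li1, Kif1a, Kif21a, Kif23, Kif27 and Kif2b were lost. From 5 to 60 days those of Dctn1, Dnah6, Dnah7, Dnah8, Dnah9, Dnal4, Kif12, Kif23, Kif27, Kif2b, Kif6, Kifc3 and Tubb6 were lost. The other microtubule lists were run under the same alternatives, a choice made after seeing the data: normexp gave 9 rises of axoneme genes and 2 of intraflagellar transport genes from 12 to 60 days, and spike-in scaling 2 falls over all lists. Members near background, such as Dnah6, Dnah7, Dnah8, Dnah9, Kif6, Kif27, Kif2b and Kif12, are limited by signal over background. Their bounds hold for the main processing.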
